A study of Mus musculus with 48 samples.

Results

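Microtubule-associated proteins and collapsin response mediator proteins were examined as a set of 10 mouse genes out of the 54331 genes in the deposited tables. The members were chosen by symbol, without regard to their values. 5 encode microtubule-associated proteins (Map1a, Map1b, Map2, Map4 and Mapt) and 5 encode collapsin response mediators (Dpysl2, Dpysl3, Dpysl4, Dpysl5 and Crmp1). All 10 were found and all 10 passed the filter on low counts in every comparison below.

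Microtubule-associated proteins bind along the microtubule wall and set its stability and spacing. In neurons the protein tau, encoded by Mapt, is concentrated in axons and the MAP2 protein in dendrites and cell bodies, while MAP1B is prominent in growing axons, MAP1A in mature neurons and MAP4 in cells outside the nervous system as well. Collapsin response mediators bind tubulin and are phosphorylated by CDK5 and GSK3 downstream of semaphorin 3A, a cue that makes growth cones collapse through neuropilin and plexin receptors.

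Retinal ganglion cells (RGC) send their axons from the eye to the brain, and the study recovered RNA from the eye and from a pair of target regions, superior colliculus (SC) and lateral geniculate nucleus (LGN). In the EU libraries is RNA that had taken up 5-ethynyl uridine injected into the eye and was captured through a biotin tag, and the protocol pools SC of 3 animals per sample. Axon-TRAP libraries hold ribosome-bound RNA, and the driver of the ribosome tag is not given in the sources used here. Uninjured wild-type mice gave EU libraries of SC at P10 (n = 3), at P10 with a 4-day chase (n = 3), at P14 (n = 5) and at 8 weeks (n = 3), EU libraries of LGN at P14 (n = 2), and TRAP libraries of SC at P10 (n = 3) and P14 (n = 5) and of LGN at P14 (n = 3). Eye cells of wild-type P14 mice were immunopanned RGC (total RNA, n = 3; EU-labelled RNA, n = 3) or cells sorted by FACS (n = 3). Uninjured P14 mice labelled fmr1ko gave EU (n = 3) and TRAP (n = 3) libraries of SC and FACS-sorted eye cells (n = 3). Axotomized mice labelled sarm1ko gave EU libraries of SC at P14 with a 7-day chase (n = 3), and no uninjured sarm1ko and no axotomized wild-type group was included. The labels do not state whether the libraries within a group had different donor animals, and each p-value is therefore relative to library-to-library spread, which may be technical.

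The 48 libraries held between 2558131 and 48263559 estimated counts (median 22212710.5). The summed TPM of 16 RGC markers was low in the eye libraries. It was 190 to 464 TPM in EU-labelled immunopanned RGC and 148 to 239 TPM in FACS-sorted cells, against 3700 to 5860 TPM in SC EU libraries at P14. Gene by gene with edgeR, 4 of 15 tested markers were higher in SC EU than in immunopanned RGC and 1 was lower (median log2 fold change 1.1, all genes 0.11). In SC TRAP against FACS-sorted cells 13 of 16 were higher and 1 was lower (4.4, all genes 0.07). Rod photoreceptor markers summed to 4770 to 109000 TPM in EU-labelled immunopanned RGC and 95000 to 184000 TPM in FACS-sorted cells, against 1.03 to 35.1 TPM in SC EU at P14. The SC libraries in turn carried oligodendrocyte and myelin markers at 6360 to 10500 TPM (SC EU, P14) and 4220 to 21200 TPM (SC TRAP, P14), against 10.3 to 30.5 TPM in EU-labelled immunopanned RGC, where 6 of the 14 markers were at 0. Mitochondrially encoded genes took 7.89 to 55.2% of counts in EU-labelled immunopanned RGC and 0.407 to 1.76% in SC EU replicates 3 to 5. The libraries therefore differed in cell content as well as in compartment, and the part of each in the differences below was not tested; in bulk RNA, fewer cells of a type and less RNA per cell cannot be told apart. Replicate 2 of the SC TRAP fmr1ko group stood apart: its profile correlated at 0.92 with the mean of wild-type FACS-sorted eye cells and at 0.582 with its own group, and its rod markers summed to 108000 TPM.

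The members were first compared by level. TPM, the authors' length-scaled abundance, permits levels of different genes to be set side by side. Summed over the 10 members, TPM was lowest in immunopanned RGC total RNA, at 39.48 to 111.1 per library. In that group lens crystallins summed to between 9.88 and 313000 TPM (mean 208000), mitochondrial genes took 42.3 and 47.3% of counts in replicates 2 and 3, and replicate 1 correlated at 0.13 with its own group; their part in the low sum was not tested. The highest sum was 5749 TPM, in 1 LGN EU library. The make-up of that sum differed between groups. Map1b made up 56.1% ± 12.4 of the summed member TPM in LGN EU (SD, n = 2), Mapt 38.9% ± 4.37 in SC EU at P10 (n = 3), Dpysl3 39.6% ± 11 in FACS-sorted wild-type eye cells (n = 3), and Dpysl2 29.2% ± 17.6 in SC TRAP at P10 (n = 3).

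**Figure D1:**
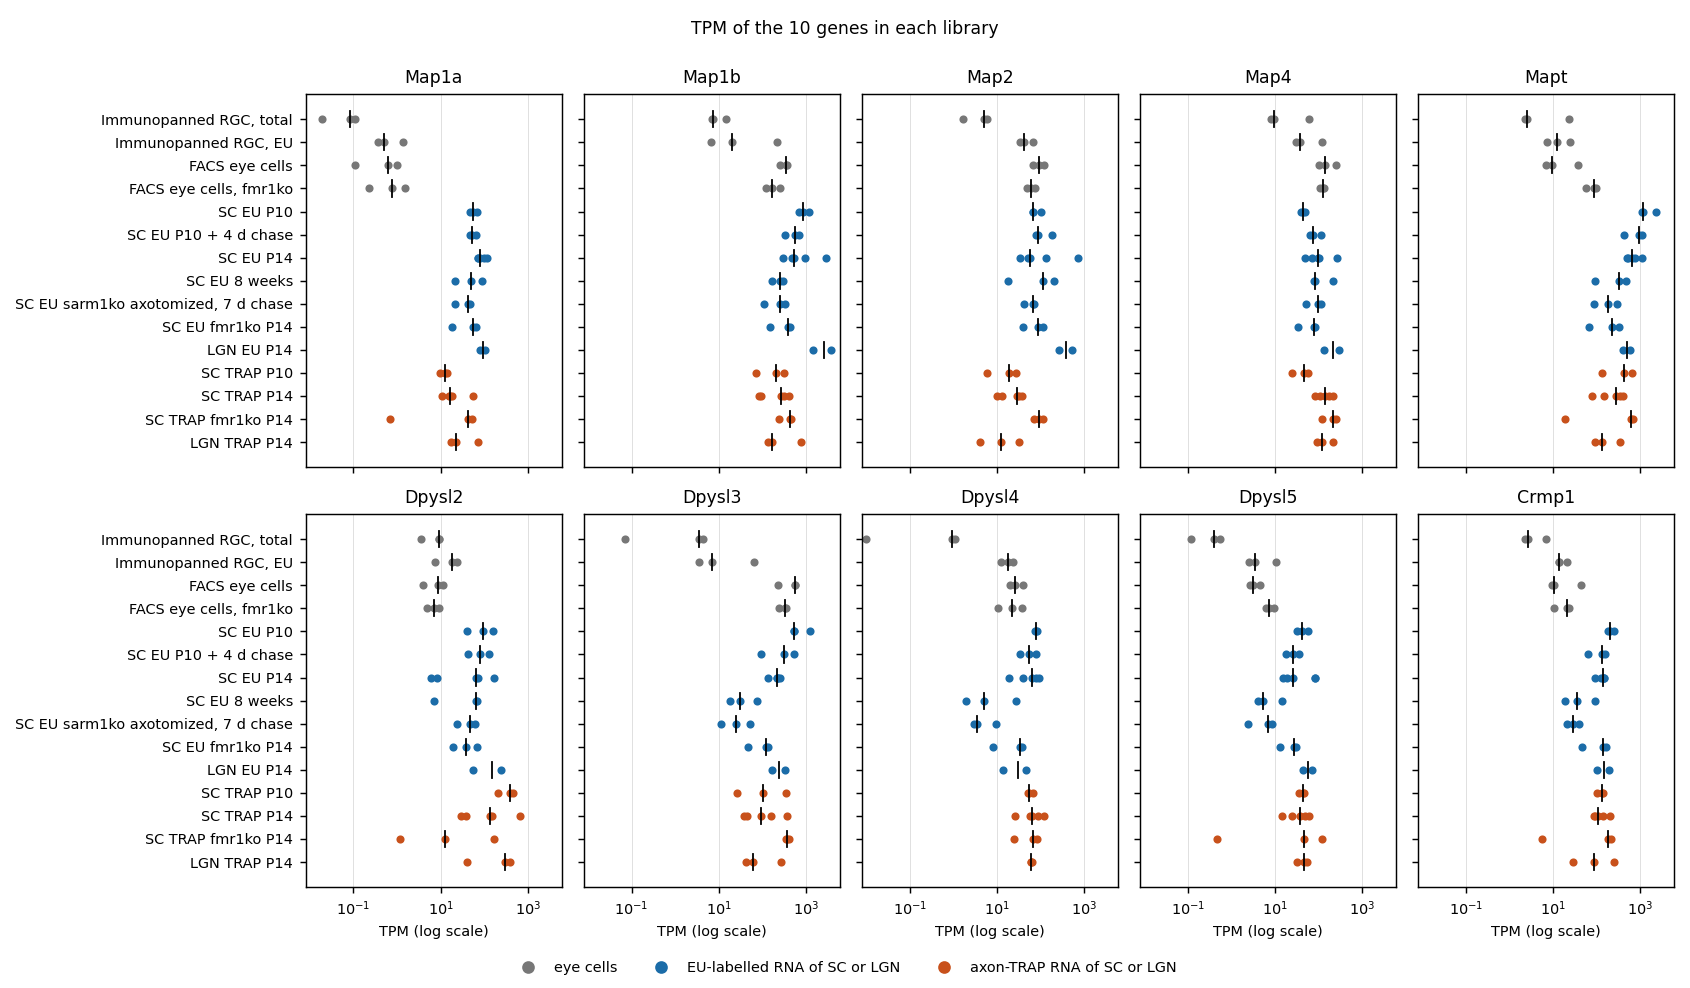
TPM (logarithmic axis) of each of the 10 members in each of the 48 libraries, with libraries as points in rows by group; a library at 0 TPM is drawn at 0.01. Map1a runs from 0.0188 TPM in immunopanned RGC total RNA to 115 TPM in SC EU at P14, and all its wild-type SC and LGN libraries lie above all its eye libraries.

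Map1a, whose product stabilises microtubules of mature neurons, lies at chr2:121289600-121310832 (GRCm38, plus strand) and has a longest coding transcript of 11825 bases. Its 5 SC EU libraries at P14 stood at 71.8, 115, 71.0, 99.1 and 80.9 TPM, and its 3 SC EU libraries at P10 at 68.6, 46.3 and 54.9 TPM. The EU-labelled immunopanned RGC libraries stood at 0.494, 0.373 and 1.34 TPM, and the FACS-sorted wild-type libraries at 0.107, 0.604 and 0.979 TPM. Every SC and LGN library of wild-type mice was thus above every eye library. SC TRAP stood at 13.8, 12.6 and 9.84 TPM at P10, below every SC EU library, but at P14 it ran from 10.7 to 53.9 TPM (median 16.2) and its highest library overlapped SC EU of P10 and of 8 weeks.

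Map1b (chr13:99421446-99516540, minus strand), a microtubule-associated protein of growing axons, was the most abundant member in LGN EU, with 3730 and 1448 TPM. In SC EU at P14 it ranged from 300 to 2861 TPM with a median of 527 TPM, so LGN EU (mean 2589 ± 1614 SD) and SC EU (1025 ± 1054) overlapped. Map2 (chr1:66175273-66442583, plus strand), which encodes the dendritic and somatic protein, spread in the same way: SC EU at P14 gave 728, 133, 56.2, 33.4 and 51.1 TPM. The libraries with the highest Map1b and Map2, SC EU replicate 1 and LGN EU replicate 1, belong to the same series of title codes. Map4 (chr9:109931460-110083955, plus strand), the widely expressed member, had group means between 26.2 TPM in immunopanned RGC total RNA and 214.5 TPM in LGN EU.

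Mapt (chr11:104231390-104332090, plus strand), the tau gene, was highest in SC EU at P10, with 2321, 1141 and 1078 TPM (mean 1513 ± 700, n = 3). It followed in the chase group (815.4 ± 353.6) and in SC EU at P14 (696 ± 228.4, n = 5), and these 3 groups overlapped at neighbouring ranks. In EU-labelled immunopanned RGC it stood at 7.22, 12.1 and 24.0 TPM. By group mean, Mapt ranked 8 of the 10 members in EU-labelled immunopanned RGC and 3 of 10 in their total RNA.

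Among the collapsin response mediators, 3 had their highest group mean in SC EU at P10. Dpysl4 (chr7:139086001-139102704, plus strand) gave 84.3, 79.8 and 75.0 TPM there (mean 79.7 ± 4.63, n = 3). Crmp1 (chr5:37241940-37292133, plus strand) gave 201, 241 and 184 TPM, and Dpysl3, on chromosome 18, gave 1256, 534 and 528 TPM. Dpysl3 differed from the other mediators in its level in the eye, with 231, 568 and 548 TPM in FACS-sorted wild-type cells, the second-highest group. Dpysl2 (chr14:66802864-66868688, minus strand), the founding member of the family and the only one with a single annotated transcript, was highest in ribosome-bound RNA of SC at P10, with 209, 444 and 393 TPM. Dpysl5 (chr5:30711564-30799375, plus strand) was highest in LGN EU at 44.5 and 69.4 TPM. Ranked by CPM instead of TPM, the top group was the same for 6 of the 10 members.

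Likeness of pattern was described by Pearson's r of log2(TPM + 1) over the 15 group means, which share libraries, depth and capture method. The most alike pair of members was Crmp1 and Dpysl5 (r = 0.96), followed by Map1a with Mapt and Mapt with Crmp1 (both r = 0.9), while Dpysl2 and Map2 had an r of 0.06. Among 8384 genes with a mean of at least 10 TPM, the gene most like Mapt was Cdh13, followed by Gap43, which encodes a growth-cone protein (both r = 0.974). The gene most like Map1a was Myt1l, a neuronal transcription factor (r = 0.984), and the one most like Map1b was Gsk3b, which encodes a kinase of microtubule-associated proteins (r = 0.972). The first for Crmp1 was Cacng4 (r = 0.99), for Dpysl5 Cabp1 (0.978), for Dpysl2 Fam181b (0.968), for Dpysl4 Bop1 (0.964), for Map2 Letm2 (0.961), for Dpysl3 Dcaf15 (0.956) and for Map4 Inpp5k (0.929).

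The promoters of the most alike pair are shown because these members moved together across the groups. RefSeq promoter sequences (GRCm38.p6, 250 bases before to 50 after the start) were present for 6 of the 10 members. Capitals mark the GC box, GGGCGG or CCGCCC on either strand, with overlapping matches counted; the sequences are 5′ to 3′ on the gene's strand, at chr5:37241808-37242107 for Crmp1 and chr5:30711314-30711613 for Dpysl5, both on the plus strand.
Crmp1: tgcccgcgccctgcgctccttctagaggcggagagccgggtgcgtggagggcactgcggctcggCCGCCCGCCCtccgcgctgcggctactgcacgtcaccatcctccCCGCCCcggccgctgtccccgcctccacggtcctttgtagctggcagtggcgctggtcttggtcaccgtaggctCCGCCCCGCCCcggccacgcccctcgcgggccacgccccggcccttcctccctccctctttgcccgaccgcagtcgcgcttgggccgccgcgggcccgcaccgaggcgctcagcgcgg
Dpysl5: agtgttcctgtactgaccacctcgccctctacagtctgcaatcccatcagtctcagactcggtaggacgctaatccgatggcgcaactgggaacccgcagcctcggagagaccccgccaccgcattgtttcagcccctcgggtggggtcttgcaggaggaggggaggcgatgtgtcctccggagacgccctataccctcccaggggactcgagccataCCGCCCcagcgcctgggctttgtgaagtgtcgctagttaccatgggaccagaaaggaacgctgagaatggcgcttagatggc
RefSeq lists 2 Crmp1 promoters, of which the upstream one is printed. It held 5 GC boxes, 41 CpG dinucleotides and 77% G or C, the other Crmp1 window (chr5:37245514-37245813) 2 GC boxes, 20 CpG and 61%, and the Dpysl5 window 1 GC box, 19 CpG and 61%. A GC box was found in 35.7% of 32851 promoters of this length, whose medians were 7 CpG and 52.7% G or C. None of the 3 windows held CACGTG (7.15% of all promoters) or TATAAA (either strand, 13.6%). All 3 windows were above the median in CpG.

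The first comparison set EU-labelled RNA of SC at P14 (replicates 3 to 5) against EU-labelled RNA of immunopanned RGC at P14. Axon and cell body cannot be told apart here from cell content. As given above, rod markers exceeded RGC markers in the immunopanned libraries, and the SC libraries carried myelin markers. Local collicular and dendritic neuron markers (local neuron markers) had 4 of 10 higher in SC and 1 lower (median 2.2, all genes 0.11). They summed to 279 to 645 TPM in SC EU at P14 and 110 to 520 TPM in EU-labelled immunopanned RGC. Their part in the differences was not tested. Map1a, Mapt, Map1b and Crmp1 were higher in SC and Map2 was lower. Thus 5 of the 10 members were called at an adjusted p under 0.05, against 22.4% of all tested genes, and the median log2 fold change was 0.65 over the members and 0.11 over all genes. Values below are CPM after TMM normalisation, that is, counts scaled to a common library size. Each difference is given on the log2 scale with its SE, from edgeR's quasi-likelihood test, and p-values are adjusted over all genes tested.

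Map1a stood at 486, 633 and 574 CPM in SC and at 4.64, 8.04 and 28.8 CPM in immunopanned RGC. The groups did not overlap (46.8% of all genes did not), and the difference (5.35 ± 0.81, edgeR adjusted p = 0.0042) was called in all 14 alternatives. Mapt stood at 983, 1230 and 762 CPM in SC against 30.4, 122 and 190 CPM (3.12 ± 0.70, edgeR adjusted p = 0.016). That call ended when a trend on transcript length was removed (2.35, adjusted p = 0.069), without SC replicate 3 (3.16, 0.057) and without SC replicate 4 (2.96, 0.065).

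Map1b stood at 631, 893 and 1070 CPM in SC against 341, 114 and 251 CPM (1.88 ± 0.56, edgeR adjusted p = 0.039). Crmp1 stood at 192, 242 and 155 CPM against 45.7, 76.5 and 67.9 CPM (1.63 ± 0.48, edgeR adjusted p = 0.039). In both genes all SC libraries lay above all immunopanned libraries, but 46.8% of all genes did not overlap and the calls were near the threshold. The Map1b call ended with the length trend removed (1.3, edgeR adjusted p = 0.15) and without any 1 library other than immunopanned replicate 1 (1.58 to 2.09 over the fits, adjusted p up to 0.11). The Crmp1 call ended without the same libraries (1.48 to 1.85, edgeR adjusted p up to 0.15), with the length trend removed (1.02, 0.24) and with all 5 SC libraries (1.46, 0.064). In all, Crmp1 was called in 6 of 14 alternatives.

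Map2, the dendritic member, ran the other way, at 75.7, 51.5 and 108 CPM in SC against 263, 435 and 301 CPM in immunopanned RGC (−2.09 ± 0.51, edgeR adjusted p = 0.022). The call ended with all 5 SC libraries (−0.68, adjusted p = 0.54), without immunopanned replicate 2 (−1.82, 0.057), without SC replicate 3 (−2.03, 0.11) and without SC replicate 4 (−1.83, 0.10). On TPM the limma value was 0 (adjusted p = 1). Map4 was at 130, 120 and 174 CPM in SC against 386, 319 and 252 CPM (−1.18 ± 0.46, edgeR adjusted p = 0.096) and took the other sign on TPM (0.40 with limma). The remaining 4 mediators overlapped between the groups: Dpysl2 (−0.47 ± 0.89), Dpysl3 (0.82 ± 0.73), Dpysl4 (0.48 ± 0.62) and Dpysl5 (0.48 ± 0.82) were not called.

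Transcript length entered these values. The ratio of counts to TPM gives an estimated mean transcript length for each gene and library, a measure chosen after seeing the data. For Dpysl2, with 1 annotated transcript of 4520 bases, group means lay between 4560 and 4653 bases, close to its annotated length, as the scaling on genes with 1 transcript makes it. For Map1a, with a longest transcript of 11825 bases, single libraries ran from 9169 to 13071 bases. For Mapt the estimate was 1971 to 2590 bases in SC EU and 4683 to 5308 bases in EU-labelled immunopanned RGC, a ratio of 0.463. For Map2 it was 2515 to 3527 bases against 4970 to 5280 bases, and for Dpysl3 1862 to 2357 bases against 5177 to 5675 bases. These 3 of 9 members were shorter in SC without overlap, against 18.1% of the 5843 genes measured. The annotation lists 8 coding Mapt transcripts, of 293, 418, 600, 1362, 1527, 2202, 2250 and 5253 bases. Coding Dpysl3 transcripts have 1986, 2106 and 5479 bases. The immunopanned estimates lay near the longest model of each gene and the SC estimates well below it. Each estimate is a mean, so a mix of long and short models cannot be told apart from 1 model of intermediate length. Map1b (3131 to 3927 bases in SC, 2023 to 8875 in immunopanned RGC) overlapped, as did Map1a (means 11806 and 11791 bases).

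**Figure D2:**
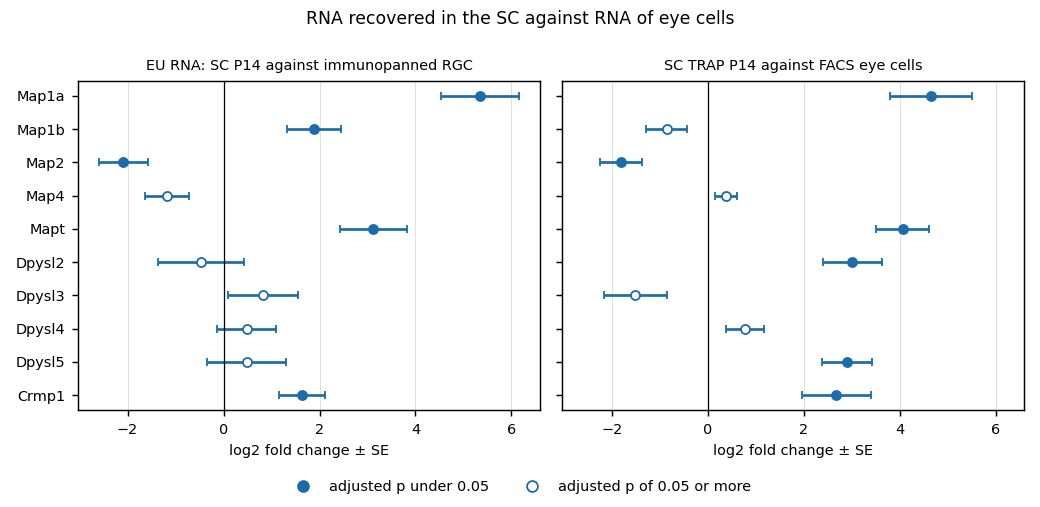
log2 fold change ± SE (edgeR) of each member, for SC EU at P14 against EU-labelled immunopanned RGC (left) and SC TRAP at P14 against FACS-sorted wild-type eye cells (right), n = 3 per group; filled points have an adjusted p under 0.05. Map1a lies farthest to the right in both panels (5.35 and 4.65) and Map2 is lower in both (−2.09 and −1.81).

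Among related genes, those of the semaphorin 3A receptor complex and its effectors had 6 of 19 higher and 0 lower in SC EU (median 2.26, all genes 0.11), among them Nrp1, the neuropilin that binds semaphorin 3A (4.82 ± 1.0, edgeR adjusted p = 0.012), and L1cam, an adhesion protein of its receptor complex (3.74 ± 1.06, adjusted p = 0.033). Kinases and phosphatases of the members had 7 of 26 higher and 3 lower, with Cdk5r1, the CDK5 activator p35, at 106 ± 10.5 CPM in SC and 6.19 ± 2.3 CPM in immunopanned RGC (SD, n = 3 each). Of 10 destabilising and severing proteins, Stmn4 and Stmn3 (stathmins, which bind free tubulin) were higher, at 6.42 ± 1.11 and 2.0 ± 0.60, and Kif2a, Spast and Katna1 (a depolymerising kinesin and severing enzymes) were lower, at −3.10, −3.05 and −4.25. Of 29 other microtubule-binding proteins 3 were higher, Map7d1 most clearly (4.20 ± 0.59, edgeR adjusted p = 0.0033), and 0 were lower. By DESeq2 5 of the 9 members with a test were called and by limma 6 of 10.

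The second comparison set ribosome-bound RNA of SC (TRAP, P14, replicates 3 to 5) against eye cells that FACS had sorted from wild-type P14 mice. It gave 5 members higher and 1 lower, against 44.5% of all genes called, with a median of 1.73 over the members and 0.07 over all genes. Local neuron markers had 8 of 10 higher and 1 lower (median 6.13). Their summed TPM was 216 to 406 in SC TRAP at P14 and 419 to 494 in the eye cells. The part of these markers in the differences was not tested. Map1a and Mapt were again the furthest apart. Map1a stood at 105, 183 and 148 CPM in SC TRAP and 0.947, 5.36 and 11.1 CPM in eye cells (4.65 ± 0.85, edgeR adjusted p = 0.0051). Mapt stood at 593, 1090 and 697 CPM against 81.1, 24.5 and 36.9 CPM (4.06 ± 0.55, edgeR adjusted p = 0.0018).

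Among the mediators, Dpysl2, Dpysl5 and Crmp1 were also higher in SC TRAP. Dpysl2 stood at 103, 158 and 430 CPM against 41, 27.3 and 17.3 CPM (3.01 ± 0.61, edgeR adjusted p = 0.0071). Dpysl5 stood at 53.5, 177 and 74.2 CPM against 17.8, 9.8 and 13.1 CPM (2.90 ± 0.53, edgeR adjusted p = 0.005). Neither pair of groups overlapped, nor did those of 63.9% of all genes. Crmp1 stood at 197, 509 and 192 CPM against 94.7, 19.7 and 25.1 CPM (2.68 ± 0.72, edgeR adjusted p = 0.02), and its call ended without TRAP replicate 4 (2.09, adjusted p = 0.068).

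Map2 was lower, at 151, 46.9 and 93.3 CPM against 330, 385 and 304 CPM (−1.81 ± 0.43, edgeR adjusted p = 0.013), a call that ended without TRAP replicate 5 (−1.66, adjusted p = 0.058). Dpysl3, abundant in the eye cells, stood at 156, 757 and 180 CPM against 710, 1090 and 1300 CPM (−1.51 ± 0.65, edgeR adjusted p = 0.095). TRAP replicate 4 lay inside the range of the eye cells, and without it Dpysl3 was called (−2.6, adjusted p = 0.0094). Dpysl4 was called without TRAP replicate 3 (1.11, edgeR adjusted p = 0.048; 0.78 ± 0.40 with all). Map1b (−0.86 ± 0.42) and Map4 (0.37 ± 0.23) were not called. Stathmins lay on the same side as Mapt: Stmn4, Stmn2 and Stmn3 were higher at 6.91, 5.28 and 5.50, and in all 5 of 11 destabilising and severing proteins were higher and 2 lower. The counts were 10 higher and 4 lower of 29 other microtubule-binding proteins, 10 and 4 of 26 kinases and phosphatases, and 9 and 3 of 21 semaphorin 3A genes.

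TRAP and EU RNA of the same region were then compared, which sets ribosome-bound against labelled total RNA. These comparisons use the same SC TRAP and SC EU libraries at P14 as those above. At P14, Map1a alone of the 10 members was called, against 14.4% of all genes: 100, 174 and 145 CPM in TRAP against 707, 930 and 800 CPM in EU (−2.54 ± 0.36, edgeR adjusted p = 0.0037). The call held in all 15 alternatives, with a value of −1.9 (adjusted p = 0.018) when the length trend was removed. Map1b leaned the same way without overlap, at 256, 697 and 553 CPM against 917, 1310 and 1490 CPM (−1.30 ± 0.43, edgeR adjusted p = 0.066), and was called by DESeq2 (−1.3, 0.031). Of all genes, 37.2% did not overlap. Mapt (−0.91 ± 0.39, adjusted p = 0.14) and Map4 (0.70 ± 0.32, 0.17) were not called by edgeR. Dpysl2 stood at 98.2, 151 and 420 CPM in TRAP against 21.6, 32.4 and 244 CPM in EU (1.17 ± 0.84, edgeR adjusted p = 0.38). EU replicate 5 was far above the other EU libraries, and without it the gene was called (3.05, adjusted p = 0.012).

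At P10 5 members were called, against 17.4% of all genes. Dpysl2 was higher in TRAP, at 804, 2010 and 2540 CPM against 379, 170 and 519 CPM in EU (2.33 ± 0.55, edgeR adjusted p = 0.017). Its lowest TRAP library exceeded its highest EU library (38.9% of all genes did not overlap). The call ended without EU replicate 1 (2.39, edgeR adjusted p = 0.078) or EU replicate 2 (2.13, 0.064). Dpysl2 was the only member called higher in TRAP at either age. Markers of some other cell types were also higher in TRAP at P10: microglia markers summed to 590 to 1100 TPM against 296 to 396 TPM in EU (3 of 10 called higher, 0 lower) and oligodendrocyte precursor markers to 624 to 1370 TPM against 332 to 365 TPM (2 of 9 higher, 1 lower). Astrocyte markers had 2 of 10 higher and 0 lower at P10, and endothelial markers 1 of 8 higher and 2 lower. Local neuron markers had 0 of 10 higher and 2 lower, and myelin markers 0 of 14 higher and 0 lower. At P14, 3 of 10 microglia markers and 0 of 9 precursor markers were called higher, and none of these was lower. Local neuron markers had 1 of 10 higher and 3 lower at P14, and astrocyte markers 1 of 10 higher and 0 lower. Endothelial and myelin markers had 0 called either way. Their part in the differences was not tested.

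The 4 others were lower in TRAP. Map1a stood at 134, 154 and 135 CPM against 747, 495 and 486 CPM (−2.03 ± 0.35, edgeR adjusted p = 0.006), but at −0.56 (0.35) with the length trend removed. Map1b stood at 611, 728 and 474 CPM against 2380, 1760 and 1640 CPM (−1.67 ± 0.38, edgeR adjusted p = 0.014). Both are among the longest transcripts: each exceeds 99% of 21978 coding genes in length. The Map1b call ended without EU replicate 1 (−1.48, edgeR adjusted p = 0.069), EU replicate 2 (−1.6, 0.065) or TRAP replicate 3 (−1.37, 0.061).

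Map2 stood at 118, 97.3 and 42.6 CPM in TRAP against 216, 225 and 282 CPM (−1.49 ± 0.42, edgeR adjusted p = 0.034), and Dpysl3 at 576, 454 and 175 CPM against 2180, 1090 and 805 CPM (−1.76 ± 0.54, adjusted p = 0.047). These 2 calls held only without TRAP replicate 1 among the 6 fits that leave out 1 library; over the other fits Map2 ran from −1.55 to −1.0 and Dpysl3 from −2.02 to −1.23. Dpysl3 also lost its call without CT010467.1 and the mitochondrial genes (−1.63, edgeR adjusted p = 0.058) and by limma on log2(TPM + 0.1) (−2.86, 0.054), and Map2 with the length trend removed (−0.99, 0.092). Mapt leaned lower (−1.05 ± 0.42, edgeR adjusted p = 0.12), and Map4, Dpysl4, Dpysl5 and Crmp1 were not called. In a joint model, no member's ratio of TRAP to EU differed between P14 and P10 (0 called by edgeR, DESeq2 and limma, 0% of all genes by edgeR), with 1 member at an unadjusted p under 0.05 (2051 of all 18660 genes were), Dpysl3 (1.79 ± 0.80, edgeR adjusted p = 0.44).

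**Figure D3:**
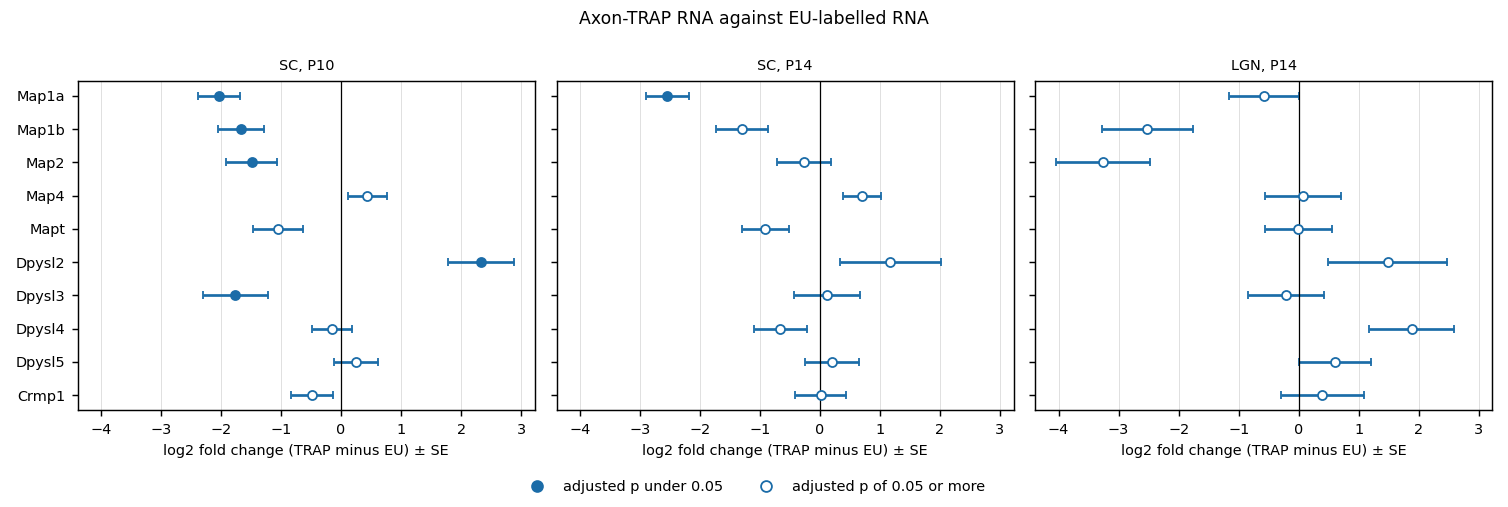
log2 fold change ± SE (edgeR) of TRAP against EU RNA for each member in SC at P10, SC at P14 and LGN at P14; filled points have an adjusted p under 0.05, n = 3 per group except 2 EU libraries of LGN. Map1a is lower in TRAP at both SC ages (−2.03 and −2.54) and Dpysl2 lies to the right in all 3 panels (2.33, 1.17 and 1.48), called at P10 alone.

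Estimated transcript lengths also differed between TRAP and EU. At P14, Mapt (3605 to 5330 bases in TRAP, 1971 to 2590 in EU), Map2 (5185 to 5271 against 2515 to 3527) and Dpysl3 (2373 to 4668 against 1862 to 2357) were longer in TRAP without overlap, 3 of 9 members against 18.3% of genes. For Dpysl3 the gap was between 2357 and 2373 bases, and SC EU replicates 1 and 2, at 2940 and 2970 bases, lay inside the TRAP range. At P10 they were Map2 (5108 to 5349 against 3662 to 3920 bases) and Mapt (2508 to 4444 against 1591 to 2069 bases), 2 of 9 against 21.2%. Crmp1 was shorter at both ages by a small margin (ratios 0.983 at P14 and 0.984 at P10). For Map2 the TRAP range at P10 held 4 annotated coding transcripts, of 5119, 5125, 5195 and 5303 bases, and the EU estimates at both ages lay below them.

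**Figure D4:**
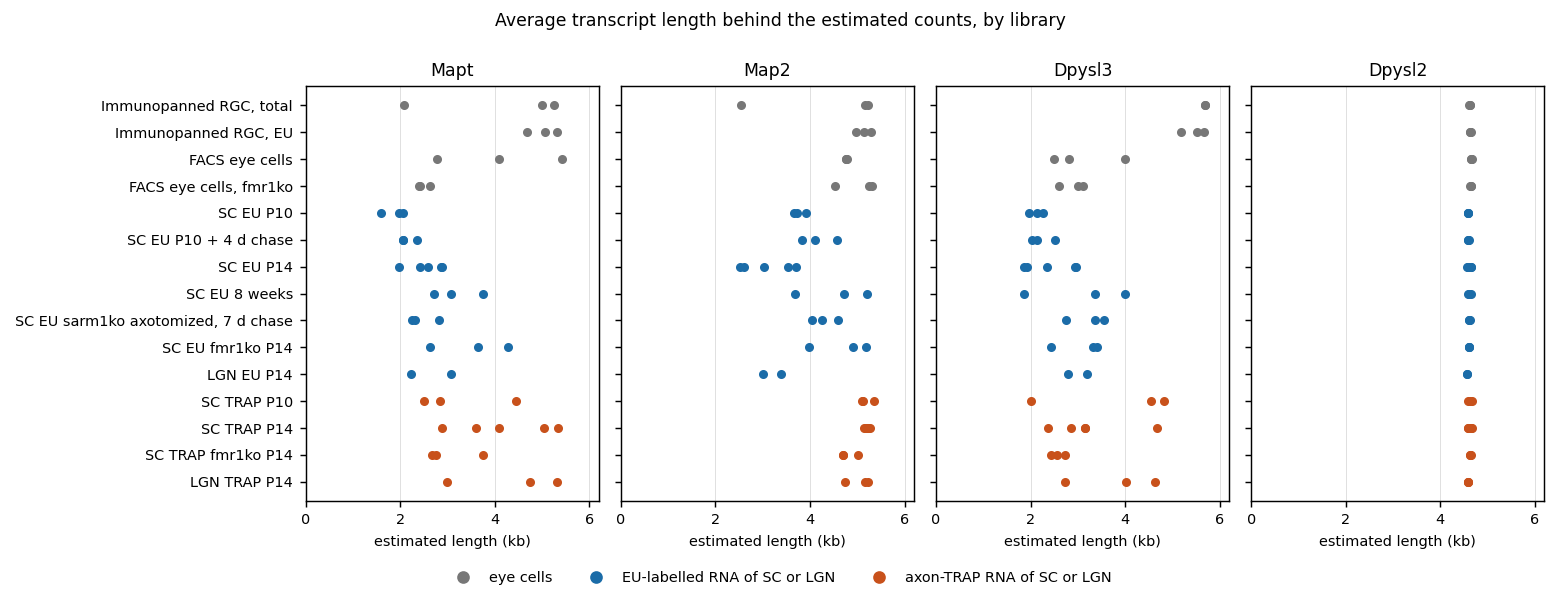
Estimated mean transcript length (horizontal axis, in kb) of Mapt, Map2, Dpysl3 and Dpysl2 in each library (points), with groups in rows and colours for eye cells, EU and TRAP libraries. In EU-labelled immunopanned RGC, Mapt, Map2 and Dpysl3 lie between 4683 and 5675 bases, to the right of SC EU replicates 3 to 5 at P14 (1862 to 3527 bases), while Dpysl2, with 1 annotated transcript, lies between 4555 and 4668 bases in every library.

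In the related genes, TRAP against EU at P10 had 6 of 29 other microtubule-binding proteins lower and 0 higher (median −0.64, all genes −0.08), led by Clip1, a plus-end protein (−2.46 ± 0.39, edgeR adjusted p = 0.0043), with Nav2 (−2.40) and Macf1 (−2.65), and 5 of 20 semaphorin 3A genes lower, among them Plxna2 (−2.21) and Nrp1 (−1.67), with 0 higher. At P14 the counts were 1 higher and 4 lower of 29, and 0 and 1 of 21. Kinases and phosphatases gave 1 higher and 3 lower of 26 at P14, Gsk3b (−2.06), Gsk3a (−3.22) and Cdk5r1 (−1.33) being lower in TRAP, and 1 higher of 26 at P10.

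In LGN, TRAP against EU gave 0 members called by edgeR, against 1.4% of all genes, with 3 at an unadjusted p under 0.05 (4545 of all 16561 genes were); DESeq2 called 2 and limma 1. Map2 stood at 18.2, 95.1 and 75.4 CPM in TRAP against 876 and 330 CPM in EU (−3.26 ± 0.78, edgeR adjusted p = 0.059). Map1b stood at 580, 1170 and 636 CPM against 7350 and 1770 CPM (−2.52 ± 0.76, adjusted p = 0.064). Both were below the lower of the EU libraries in every TRAP library, while 52.2% of all genes did not overlap. Between SC and LGN, no member was called in EU RNA (0% of all genes) or in TRAP RNA (0%), with 0 members at an unadjusted p under 0.05 and 0 called by edgeR, DESeq2 and limma in both. Mapt stood at 1010 and 960 CPM in SC EU against 747 and 628 CPM in LGN EU (0.52 ± 0.66), without overlap (32.1% of all genes did not overlap). Map1b stood at 5300 and 2000 CPM against 8850 and 2120 CPM (−0.59 ± 0.88), with overlap. Each comparison rests on 2 SC libraries, and the SE of the members ran from 0.56 to 1.01 log2 units, so differences of that size were not detectable.

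Age comparisons asked how the RNA at the colliculus changes as the projection matures. In EU RNA, P14 against P10, Dpysl3 was the member called, against 2.03% of all genes: 314, 361 and 267 CPM at P14 against 2040, 1060 and 793 CPM at P10 (−2.05 ± 0.38, edgeR adjusted p = 0.025). Every P10 library exceeded every P14 library. The call ended with all 5 P14 libraries (−2.12, edgeR adjusted p = 0.063), without P10 replicate 1 (−1.53, 0.12), P10 replicate 2 (−2.16, 0.067), P14 replicate 3 (−2.01, 0.13) or P14 replicate 4 (−2.14, 0.05). Dpysl3 encodes a mediator known from growing neurons.

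Of the members that did not pass the test, Map1a (676, 908 and 794 CPM against 696, 481 and 479 CPM; 0.52 ± 0.29) and Map4 (180, 173 and 240 CPM against 98.4, 148 and 148 CPM; 0.59 ± 0.30, without overlap) had higher means at P14, and the others lower ones. Dpysl5 stood at 100, 81.5 and 65.9 CPM against 135, 262 and 144 CPM (−1.13 ± 0.34, edgeR adjusted p = 0.11), Crmp1 at 268, 347 and 214 CPM against 493, 623 and 384 CPM (−0.85 ± 0.31, 0.17), and Map2 at 105, 73.8 and 150 CPM against 202, 219 and 278 CPM (−1.09 ± 0.33, 0.11). The groups did not overlap for any of these, and in all 6 members did not overlap, against 25.7% of all genes. Dpysl2 differed by library: P14 replicates 3 and 4 stood at 20.7 and 31.6 CPM, and replicate 5 at 242 CPM, against 353, 165 and 511 CPM at P10 (−1.81 ± 0.78, edgeR adjusted p = 0.25; −3.7, 0.0032 without replicate 5). Map2 too was called without P14 replicate 5 (−1.37, adjusted p = 0.018) and had the other sign with all 5 P14 libraries (0.24). Myelin markers moved with age, from 946 to 1890 TPM at P10 to 6360 to 10500 TPM at P14, and their part in these values was not tested.

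In TRAP RNA, P14 against P10 gave 0 members called by edgeR, against 0% of all genes, 2 at an unadjusted p under 0.05 (2275 of all 15752 genes were), 1 by DESeq2 and 0 by limma. Dpysl2 had the largest difference, 95.7, 149 and 416 CPM against 865, 2180 and 2730 CPM (−3.13 ± 0.67, edgeR adjusted p = 0.15), and was called without P10 replicate 1 (−3.49, 0.038). Dpysl5 stood at 49.9, 167 and 71.9 CPM against 213, 246 and 262 CPM (−1.32 ± 0.47, edgeR adjusted p = 0.25). All 3 P10 libraries were above all P14 libraries for both; 22% of all genes did not overlap.

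At 8 weeks against P14 in EU RNA, 0 members were called by edgeR, DESeq2 or limma (0% of all genes by edgeR), with 4 at an unadjusted p under 0.05 by edgeR (1548 of all 16942 genes were). Dpysl3 stood at 82.6, 68.5 and 112 CPM against 284, 328 and 245 CPM (−1.70 ± 0.56, edgeR adjusted p = 0.46), and Dpysl4 at 9.49, 6.23 and 57.1 CPM against 161, 162 and 81.2 CPM (−2.47 ± 0.87, 0.47). The 8-week libraries differed among themselves, each correlating best with the mean of another group, replicate 3 with P14. Replicate 3 correlated at 0.898 with P14 and at 0.714 with its own group, so leaving it out removes the library most like the comparison group. Without it 3385 genes were called in all, where 16942 were tested and 0 called with all libraries. Of those called, 5 were members: Dpysl3 (−1.93), Dpysl4 (−4.11), Dpysl5 (−2.19), Crmp1 (−1.99) and Map2 (2.96).

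After the 4-day chase, which follows RNA labelled at P10 as it ages, 0 members were called by edgeR against P10 (0.00597% of all genes) and 0 by limma, with 6 at an unadjusted p under 0.05 by edgeR (3030 of all 16746 genes were), and DESeq2 called 4. Crmp1 stood at 138, 274 and 318 CPM after the chase against 589, 735 and 436 CPM (−1.27 ± 0.36, edgeR adjusted p = 0.16). Dpysl5 stood at 64, 98.6 and 109 CPM against 162, 310 and 164 CPM (−1.23 ± 0.34, 0.16), and Dpysl3 at 172, 478 and 750 CPM against 2430, 1250 and 900 CPM (−1.71 ± 0.53, 0.17). For these 3, and for Map1b (−1.01 ± 0.32, 0.18), Mapt (−1.06 ± 0.40, 0.22) and Dpysl4 (−0.93 ± 0.33, 0.20), the chase libraries all lay below the P10 libraries, 6 members without overlap against 25.6% of all genes. Map1a (−0.41 ± 0.29), Map2 (0.38 ± 0.36), Map4 (0.33 ± 0.29) and Dpysl2 (−0.52 ± 0.46) overlapped. The chase and P14 comparisons share the P10 libraries, and the age of the animals, P10 with 4 days of chase or P14, cannot be told apart from the time since labelling. Cell content moved as well: myelin markers summed to 4220 to 6960 TPM after the chase against 946 to 1890 TPM at P10. Of 14 myelin markers 0 were called (median 1.67, all genes 0.05), and their part in these values was not tested.

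SARM1 is an enzyme that drives the degeneration of cut axons. EU RNA of axotomized sarm1ko mice was compared with wild-type SC EU RNA at P14 and after the 4-day chase. Sarm1 itself was at 3.32, 3.22 and 2.62 CPM in the sarm1ko libraries against 19.4, 42.1 and 19.9 CPM at P14. Genotype, axotomy, chase time and age cannot be told apart in these comparisons, which share the sarm1ko libraries. The sarm1ko libraries also held 27.4 to 48.5% of counts in the rRNA gene CT010467.1 (4.54 to 33.7% at P14) and 13.1 to 31.4% in mitochondrially encoded genes, and their RGC markers summed to 404 to 1540 TPM, against 3700 to 5860 TPM at P14 and 3760 to 5230 TPM after the chase. The part of these in the differences was not tested; with CT010467.1 and the mitochondrial genes left out, 6 and 5 members were called, as many as with them.

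Against P14, 6 members were called, 5 lower and 1 higher, against 37.6% of all genes. The mediators other than Dpysl2 fell. Markers of some other cell types were lower as well: 5 of 9 oligodendrocyte precursor markers (median −1.76, all genes 0.16), 5 of 10 microglia markers (−1.15) and 4 of 10 local neuron markers (−1.07) were called lower, and 0, 0 and 2 higher. Myelin markers were split, with 4 higher and 4 lower of 14 (−0.09). Astrocyte markers had 0 higher and 2 lower of 10 (0.45), and endothelial markers 1 and 3 of 8 (−0.18). The part of these markers was not tested. Dpysl4 stood at 9.49, 14.6 and 14.4 CPM in sarm1ko against 131, 129 and 61.6 CPM (−3.06 ± 0.39, edgeR adjusted p = 0.0017). Dpysl5 stood at 9.33, 16.3 and 19.6 CPM against 73.7, 59.2 and 45.8 CPM (−1.98 ± 0.38, edgeR adjusted p = 0.0047). Dpysl3 stood at 85.3, 82.7 and 67.1 CPM against 231, 262 and 186 CPM (−1.53 ± 0.28, edgeR adjusted p = 0.0041). In all 3 genes the highest sarm1ko library was below the lowest wild-type library, while 57.8% of all genes did not overlap in this comparison. The calls held in all 15 alternatives. Crmp1 stood at 62.6, 63.6 and 68.7 CPM against 197, 253 and 149 CPM (−1.62 ± 0.30, edgeR adjusted p = 0.004; −1.39, 0.051 with all 5 P14 libraries).

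Mapt stood at 422, 468 and 340 CPM against 1010, 1280 and 732 CPM (−1.30 ± 0.32, edgeR adjusted p = 0.012). Its call ended without sarm1ko replicate 1 (−1.31, edgeR adjusted p = 0.062), without sarm1ko replicate 3 (−1.17, 0.068) and with all 5 P14 libraries (−0.98, 0.16). Map2 was higher, at 319, 176 and 294 CPM against 77.6, 53.7 and 104 CPM (1.75 ± 0.35, edgeR adjusted p = 0.0055), but at 0.38 (0.75) with all 5 P14 libraries, 0.92 (0.058) with the length trend removed and 0.35 (0.70) on TPM with limma. Map1a was not called (−0.52 ± 0.29, edgeR adjusted p = 0.18) except with the length trend removed (−2.17, 0.0031). Dpysl2 stood at 229, 161 and 187 CPM against 15.2, 23 and 168 CPM (1.48 ± 0.74, edgeR adjusted p = 0.13; 3.31, 5.8e-05 without P14 replicate 5), and Map4 was called without the same library (0.75, 0.028; 0.64 ± 0.27 with all). Map1b overlapped between the groups (0.03 ± 0.31).

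**Figure D5:**
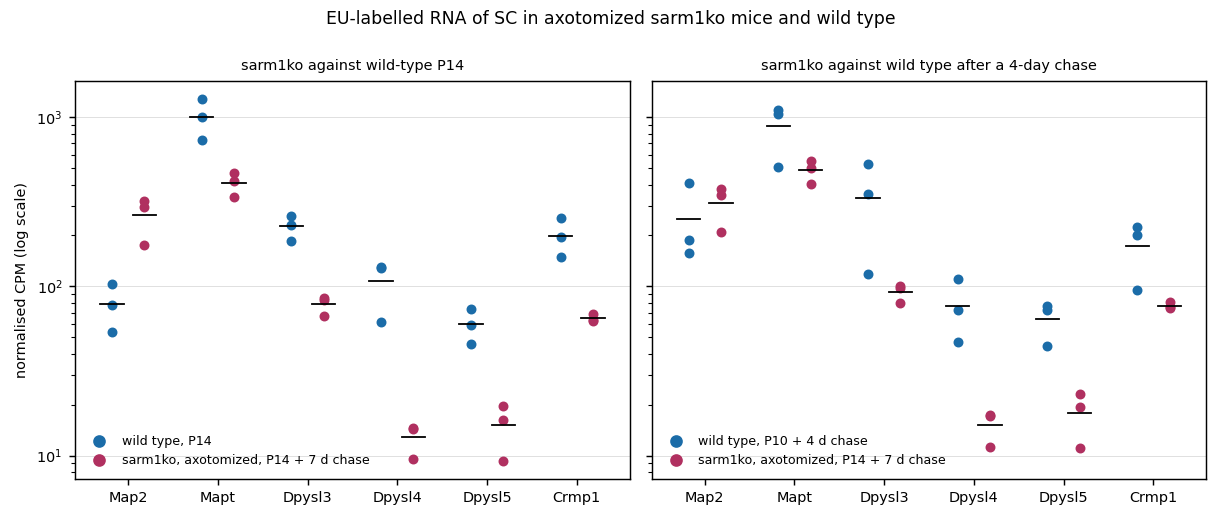
Normalised CPM (logarithmic axis) of Map2, Mapt, Dpysl3, Dpysl4, Dpysl5 and Crmp1 in EU libraries of SC (points, with the mean as a line), axotomized sarm1ko against wild type at P14 (left) and against wild type after the 4-day chase (right), n = 3 per group. Dpysl4 and Dpysl5 lie at 9.33 to 19.6 CPM in the sarm1ko libraries of the left panel, below all wild-type libraries, while Map2 lies above them there and overlaps in the right panel.

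Against the 4-day chase, 5 members were called, 4 lower and 1 higher, against 21.2% of all genes. Dpysl4 (11.2, 17.4 and 17.1 CPM against 46.9, 111 and 72.3 CPM; −2.33 ± 0.36, edgeR adjusted p = 0.001) and Dpysl5 (11.1, 19.4 and 23.2 CPM against 44.2, 72.1 and 76.6 CPM; −1.85 ± 0.35, 0.0031) were lower in all 14 alternatives. Dpysl3 stood at 101, 98.1 and 79.6 CPM against 119, 350 and 529 CPM (−1.84 ± 0.43, edgeR adjusted p = 0.0092), and its call ended without sarm1ko replicate 1 (−1.9, 0.05) or 3 (−1.74, 0.062). Crmp1 stood at 74.2, 75.5 and 81.4 CPM against 95.3, 200 and 224 CPM (−1.17 ± 0.33, edgeR adjusted p = 0.022), a call that ended without chase replicate 2 (−1.06, 0.084) or 3 (−0.95, 0.07) or sarm1ko replicate 1 (−1.14, 0.10) or 3 (−1.21, 0.087). The direction of all 4 mediators was the same as against P14, with the sarm1ko libraries in common. Against the chase, oligodendrocyte precursor markers had 0 higher and 4 lower of 9, local neuron markers 1 and 4 of 10, and microglia markers 0 and 1 of 10. Myelin markers had 5 higher and 1 lower of 14, astrocyte markers 1 and 1 of 10, and endothelial markers 0 and 0 of 8. Their part was not tested.

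Map4 was higher, at 243, 259 and 282 CPM against 167, 129 and 113 CPM (0.94 ± 0.28, edgeR adjusted p = 0.029). The call held without chase replicate 1 alone among the fits that leave out 1 library (0.81 to 0.99 over the others) and was absent on TPM (0.03 with limma). Mapt stood at 500, 555 and 403 CPM against 505, 1050 and 1110 CPM (−0.87 ± 0.36, edgeR adjusted p = 0.099) and was called without chase replicate 1 (−1.16, 0.013). Map1a (0.44 ± 0.31), Map1b (0.46 ± 0.33), Map2 (0.31 ± 0.38) and Dpysl2 (0.19 ± 0.38) were not called.

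The related genes moved in both directions. Against P14, 12 of 26 kinases and phosphatases were lower and 2 higher (median −0.88, all genes 0.16), with Fyn, a Src-family kinase, at −2.21 ± 0.31 and Mark4, which phosphorylates microtubule-associated proteins, at −2.61 ± 0.42, and Rock2 higher at 2.90 ± 0.56. Of 21 semaphorin 3A genes 7 were lower and 1 higher, Plxna1, a co-receptor, being lower at −2.34 ± 0.32 and Plxna2 higher at 1.18 ± 0.36. Among the destabilising proteins, the stathmin genes Stmn3 (−1.85 ± 0.34) and Stmn4 (−1.45 ± 0.32) were lower. Other microtubule-binding proteins were split, 7 higher and 8 lower of 29, with Mapre3, an end-binding protein, lower at −2.39 ± 0.33 and Macf1, a cross-linker of actin and microtubules, higher at 2.28 ± 0.48. Of 14 RGC markers 5 were lower and 0 higher. Against the chase the counts were 2 higher and 8 lower of 26 kinases and phosphatases, 1 and 4 of 20 semaphorin 3A genes, and 5 and 6 of 29 other microtubule-binding proteins, and Stmn4 (−1.32 ± 0.30) and Stmn3 (−1.03 ± 0.34) were lower.

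The libraries labelled fmr1ko were compared with wild-type libraries of the same kind. Fmr1, the targeted gene, was at 9.93, 4.91 and 13.2 CPM in the SC EU libraries labelled fmr1ko against 1.22, 1.64 and 0.452 CPM in wild type. It was thus higher under the label there. It overlapped in TRAP (0.138, 13.4 and 2.49 against 2.79, 4.44 and 11.7 CPM) and in FACS-sorted cells (26.9, 4.13 and 5.36 against 30.4, 17.7 and 7.77 CPM). These RNA levels do not bear out the label and cannot settle it. The directions below therefore refer to the label only. In EU RNA edgeR called 0 members (1.11% of all genes), with 3 at an unadjusted p under 0.05 (3912 of all 16546 genes were); DESeq2 called 2 and limma 1. Mapt stood at 566, 510 and 623 CPM in the libraries labelled fmr1ko against 1220, 1580 and 935 CPM (−1.14 ± 0.30, edgeR adjusted p = 0.081). The groups did not overlap (32.1% of all genes did not), and the gene was called by DESeq2 (−1.17, 0.015), by limma on TPM (−2.1, 0.021) and by edgeR without wild-type replicate 5 (−1.31, 0.015). Dpysl4 (−1.16 ± 0.38, edgeR adjusted p = 0.12; −1.44, 0.018) and Dpysl2 (1.5 ± 1.0, 0.39; 3.4, 0.036) were also called without that library, the second value in each case. RGC markers summed to 1520 to 3710 TPM in the libraries labelled fmr1ko against 3700 to 5860 TPM in wild type, and mitochondrial genes took 9.58 to 40.0% against 0.407 to 1.76% of counts; their part in these values was not tested. Map2 varied within the labelled group, at 301, 1070 and 113 CPM against 93.9, 66.2 and 133 CPM (2.34 ± 0.70, edgeR adjusted p = 0.10).

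In FACS-sorted eye cells edgeR called 0 members (0.0593% of all genes), with 2 at an unadjusted p under 0.05 (1932 of all 15165 genes were); DESeq2 called 2 and limma 0. Mapt was here higher in the libraries labelled fmr1ko, at 196, 130 and 200 CPM against 75.6, 22.1 and 33.4 CPM (2.0 ± 0.47, edgeR adjusted p = 0.13), and Dpysl5 at 27.3, 35.4 and 43.7 CPM against 16.6, 8.83 and 11.9 CPM (1.51 ± 0.46, 0.20). Neither gene's groups overlapped, nor did those of 22.3% of all genes. RGC markers summed to 294 to 351 TPM in the FACS-sorted libraries labelled fmr1ko against 148 to 239 TPM in wild type, also without overlap, and their part in the differences was not tested.

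In TRAP RNA edgeR called 0 members (0% of all genes), with 1 at an unadjusted p under 0.05 (2879 of all 16115 genes were), and DESeq2 and limma called 0. Map2 stood at 270, 325 and 296 CPM in the libraries labelled fmr1ko against 161, 50.2 and 101 CPM (1.51 ± 0.54, edgeR adjusted p = 0.20). Replicate 2, the library that resembled eye cells, had Map1a at 7.44, Mapt at 66.9, Dpysl5 at 2.34 and Crmp1 at 15.6 CPM, against 308 and 340, 940 and 1020, 140 and 339, and 295 and 324 CPM in the other libraries of its group. Without it 0 members were called by edgeR, with Map1a at 1.03 (adjusted p = 0.10) and Map2 at 1.42 (0.098). No member's labelled fmr1ko effect differed between TRAP and EU (0 called by edgeR, DESeq2 and limma, 5.92% of all genes by edgeR, 0 at an unadjusted p under 0.05 by edgeR), but without that library Map1a did (1.74, edgeR adjusted p = 0.027). Replicates 1 and 3 of this TRAP group correlated best with EU groups (0.809 and 0.801) and at 0.77 with their own, against 0.941 to 0.963 in wild-type replicates 3 to 5. Microglia markers summed to 23.2 to 379 TPM in this group against 841 to 1610 TPM in wild-type SC TRAP at P14. Local neuron markers summed to 361 to 569 against 216 to 406 TPM. Rod markers summed to 107 TPM in the lowest library of this group, above the 5.76 to 40.2 TPM of wild-type SC TRAP at P14. Leaving out replicate 2 thus did not bring the group to the wild-type level of rod markers. Their part in these values was not tested.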

How the data were processed

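The data are 48 mouse libraries in 15 groups, taken from titles and characteristics. Salmon and the mm10 build are named in the submitters' processing notes. Tool version, annotation release, filters and strand setting are details not given in the sources used here. Deposited tables hold estimated counts per Ensembl gene and TPM per gene (length-scaled abundances made by the authors), per the file headers and the values. Of 54331 genes, 54097 were matched to symbols and positions in GENCODE M21 (GRCm38). Map1a, Map2, Map4, Mapt and Crmp1 overlap genes on the opposite strand, so reads of the overlapping parts cannot be told apart without the strand setting.

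Estimated counts were rounded, filtered with filterByExpr and scaled with TMM. Each comparison was fitted alone over all genes with edgeR's quasi-likelihood F test, two-sided, with Benjamini-Hochberg adjustment, and called at an adjusted p under 0.05; differences between comparisons were tested as interactions. The fits ran in R 4.3.3 with DESeq2 1.42.0, edgeR 4.0.16 and limma 3.58.1. The procedure was tested on simulated data. Comparisons used replicates 3 to 5 of the wild-type P14 SC groups, which share their series of title codes with the other SC groups, except SC against LGN (replicates 1 and 2). Estimated length is counts over TPM, scaled per library on genes with a single transcript of at least 2000 bases, for values of at least 50 counts. Alternatives were RLE scaling, no filter, DESeq2, limma-trend on log2(TPM + 1) and log2(TPM + 0.1), the replicate number as a block, all 5 P14 libraries, CT010467.1 and mitochondrial genes left out, removal of a length trend, and each library left out. All members are named; of each related list, at most the 3 called genes with the smallest adjusted p per direction, and for each member the 3 most alike genes, could be named. Members, lists and tests were chosen with earlier results of these data known.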

Additional observations from a re-analysis of the deposited data

Results flagged for a closer look

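A single library far from the other 4 of its group was found in 5 of 20 pairs of a member and a group of 5 libraries, by the gap to its neighbour as a share of the group's range (Dixon's test). The nominal rate of about 1 of 20 is for normally distributed, independent values. It need not hold for TPM of members in the same libraries, and Map1b, Map2 and Map4 were flagged in the same library. In SC EU at P14, replicate 1 stood at 2860 TPM for Map1b with the next library at 953 TPM (gap 0.74 of the range), at 728 TPM for Map2 with the next at 133 TPM (0.86), and at 257 TPM for Map4 with the next at 103 TPM (0.73). That library has the lowest total of all, 2558131 counts, and correlated better with the mean of LGN EU (0.772) than with its own group (0.70). In SC TRAP at P14, replicate 1 stood at 53.9 TPM for Map1a with the next at 18.6 TPM (0.82), and replicate 2 at 647 TPM for Dpysl2 with the next at 149 TPM (0.80). The comparisons of age, capture and genotype used replicates 3 to 5 and these 3 libraries entered them only where all 5 P14 libraries are named; they also entered the levels and the comparison of SC with LGN.

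Mapt was lower in every EU library labelled fmr1ko than in every wild-type EU library of SC at P14 (replicates 3 to 5; log2 fold change −1.14) and higher in every FACS-sorted library labelled fmr1ko than in every wild-type one (2.0). The difference between the effects was not tested. Mitochondrial genes took 9.58 to 40.0% of counts in the EU libraries labelled fmr1ko against 0.407 to 1.76% in wild type, and 1.29 to 2.53% against 2.65 to 7.01% in FACS-sorted cells. RGC markers summed to 1520 to 3710 TPM against 3700 to 5860 TPM in EU and to 294 to 351 TPM against 148 to 239 TPM in FACS-sorted cells; their part in the result was not tested.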

How the results depend on the processing

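Of 1003 alternative values for 67 member differences, 866 kept direction and side of the threshold, 70 lost the call, 59 gained one and 8 changed sign or came to 0. The 67 were those called, or of at least 1 log2 unit, in the reported fit. Smaller differences that were not called were left out of these counts, and signs changed among them too. Map4 in SC TRAP against FACS-sorted eye cells ran from −0.55 to 0.55. Counts of members called moved as follows. For SC EU against immunopanned RGC, 5 became 3 with the length trend removed and with all 5 P14 libraries. For TRAP against EU at P14, 1 became 3 with no filter and with the replicate block, and 2 with DESeq2, with limma at either pseudocount, with the length trend removed and with all 5 P14 libraries; at P10, 5 became 3 with the length trend removed and with the replicate block (without Map1b, adjusted p = 0.058, and Map2, 0.075, by edgeR); in LGN, 0 became 2 with no filter and with DESeq2, and 1 with RLE factors, limma at either pseudocount and the length trend removed. For EU at P14 against P10, 1 became 2 with no filter and with the replicate block, 3 with DESeq2 and 0 with all 5 P14 libraries; for TRAP, 0 became 1 with no filter and with DESeq2. For the chase, 0 became 3 with no filter and 4 with DESeq2. For sarm1ko against P14, 6 became 3 with all 5 P14 libraries. For libraries labelled fmr1ko, 0 became 4 (no filter), 2 (DESeq2) and 1 (limma, either pseudocount) in EU and 2 (DESeq2) in FACS-sorted cells. The top group by CPM matched that by TPM for 6 of 10 members.

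With 1 library left out, counts ran from 1 to 6 (SC EU against immunopanned RGC), 5 to 7 (TRAP against FACS), 1 to 2 and 1 to 5 (TRAP against EU at P14 and P10), 0 to 3 and 0 to 1 (age, EU and TRAP), 0 to 5 (8 weeks), 5 to 8 and 2 to 6 (sarm1ko against P14 and chase), 0 to 3 (fmr1ko label, EU) and 0 to 1 (its difference between TRAP and EU), and stayed at 0 to 0 in the rest. In SC EU against immunopanned RGC with limma, Map2 came to 0 (both pseudocounts), which is no change of sign, and Map4 changed sign (0.40 and 0.41). The other sign changes among the 67 differences were Map2 with all 5 P14 libraries in EU by age (0.24) and in the age difference of TRAP to EU (−0.28), Dpysl2 in the latter without SC EU P14 replicate 5 (0.62, with −2.06 to 0.62 over the fits that leave out 1 library), and Map1a in the fmr1ko difference between captures with the length trend removed (−0.04). The cause was not tested. Over the same alternatives the number of all genes called ran from 923 to 6227 for SC EU against immunopanned RGC (3485 as reported), from 1011 to 10376 for sarm1ko against P14 (6453) and from 21 to 2092 for EU at P14 against P10 (330). It ran from 718 to 4819 (2340) and 1073 to 4553 (2742) for TRAP against EU at P14 and P10, 0 to 3915 (232) in LGN, 0 to 833 (0) for TRAP by age, 0 to 3385 (0) at 8 weeks, 0 to 1070 (1) for the chase, 0 to 3497 (183) and 0 to 1688 (9) for the fmr1ko label in EU and FACS, and 0 to 3322 (1099) for its difference between TRAP and EU.

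Replicate numbers were not treated as pairs: in no comparison with 3 pairs did every same-numbered pair deviate together at a correlation over 0.1. In SC against LGN the 2 pairs correlated at 0.31 (EU) and 0.37 to 0.41 (TRAP), and in LGN TRAP against EU at −0.16 to −0.09; the block left the counts there at 0. Groups of 2 to 5 libraries set the precision, and the SE of the members limits what could be seen.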
